A study of Homo sapiens with 15 samples.

Results

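NCI-H1975 cells given almonertinib, a drug that blocks the kinase of the epidermal growth factor receptor EGFR, were compared with NCI-H1975 cells given EGF, the ligand that switches the same receptor on. The comparison rests on 6 of the 15 libraries of the series, 3 labelled Almonertinib and 3 labelled EGF, chosen by their treatment label alone. A further 3 libraries labelled control were used only to say whether control cells lay between the groups, outside them or level with either. NCI-H1975 is a human lung adenocarcinoma cell line, long in use, whose EGFR is mutated, so each group carries that receptor, and each result holds for this single line. Dose, exposure time and medium are not given in the labels, and nothing says whether the libraries of a group come from separate cultures, so the p-values reflect no more than how far these libraries differ among themselves, and that difference may be technical. No measure of receptor activity is used here; the activity of the pathway is described only through transcript levels.

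EGFR is a receptor tyrosine kinase. When EGF or a related ligand binds, the receptor passes the signal on through RAS, RAF, MEK and ERK, which switch on immediate early transcription factors and then a set of feedback genes, and through PI3K, AKT and mTOR. AKT keeps FOXO transcription factors out of the nucleus, mTOR complexes hold back TFEB, the regulator of lysosomal genes, and both support the SREBP factors that drive cholesterol and fatty acid synthesis. Lung adenocarcinoma lines with a mutated EGFR are known to depend on this signal for proliferation.

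Messenger RNA levels were deposited by the authors as FPKM, fragments scaled by gene length and by the depth of the library, for 61248 loci. Of these, 13520 reached 1 FPKM in 3 or more of the 6 libraries compared and were tested. Totals of 20142786 to 22205939 reads lay behind the almonertinib libraries, 23663624 to 31379222 behind the EGF libraries and 18009903 to 21100647 behind the control libraries, which makes a single read over a length of 1 kb worth 0.0319 to 0.0555 FPKM. Reads of the 13 protein-coding mitochondrial genes made up 4.88% to 5.20% of the almonertinib libraries, 4.23% to 4.53% of the EGF libraries and 4.49% to 5.04% of the control libraries. The mitochondrial ribosomal RNAs MT-RNR1 and MT-RNR2, both higher with almonertinib, were not counted in this share. The epithelial genes EPCAM, KRT7, KRT8, KRT18, KRT19 and CDH1 and the lung lineage factor NKX2-1 were above 1 FPKM in each of the 6 libraries, whereas NAPSA, a protease of alveolar cells, was below 1 FPKM throughout. Of 11 leukocyte markers, 9 were below 1 FPKM in both groups, MS4A1 and LYZ among them at 0, while CD14 was present at 39.3, 40.9 and 34.1 FPKM with almonertinib and 35.5, 38.5 and 35.5 FPKM with EGF. The summed level of 11 fibroblast and endothelial markers, which was mostly COL1A2, was 361 to 387 FPKM with almonertinib, 196 to 217 FPKM with EGF and 341 to 357 FPKM in control; its part in the results was not tested.

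The groups differed at most of the expressed loci. In all, 3846 loci were higher with almonertinib than with EGF (28.4% of those tested) and 4047 were lower (29.9%), which together made 58.4% (limma on log2(FPKM + 1), two-sided, Benjamini-Hochberg adjusted p under 0.05). With so large a share past the threshold, a single call says little, and the size of a difference and the number of genes of a kind that moved are given beside it. Counts of each list are to be read beside the 28.4% higher and 29.9% lower of all tested loci. Gene lists share some members, and examples of a list beyond its 3 members of smallest p were chosen after their values were seen. Counts of 3 or fewer on the smaller side of a list moved by 1 or 2 members when single libraries were left out, for the HIF1, ID, MHC class I, lysosomal, metallothionein, ribosome biogenesis, respiratory chain and cyclin lists. A difference of at least 2-fold was reached by 755 higher loci (5.58%) and 833 lower loci (6.16%), and at least 4-fold by 70 and 83. At 8688 loci (64.3%) the 3 almonertinib libraries lay entirely above or entirely below the 3 EGF libraries. The median difference over the 13520 loci was -0.03 on the log2 scale, and it was -0.12 when each library was rescaled to TPM (transcript shares that add up to a fixed total). Under TPM scaling 3328 loci were higher and 4670 lower, so that 41.6% of the calls were higher. Median-ratio scaling gave 4048 higher and 3991 lower, so the balance of the 2 directions depends on the scaling. The filter kept 637 loci through the almonertinib libraries alone, of which 628 were called higher, and 375 through the EGF libraries alone, of which 371 were called lower; such loci had to differ, and without them 3218 of 12508 were higher and 3676 lower. At the edge of the filter, 1229 loci had at least 1 FPKM in exactly 3 libraries and were kept, and 618 in exactly 2 were left out.

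**Figure D1:**
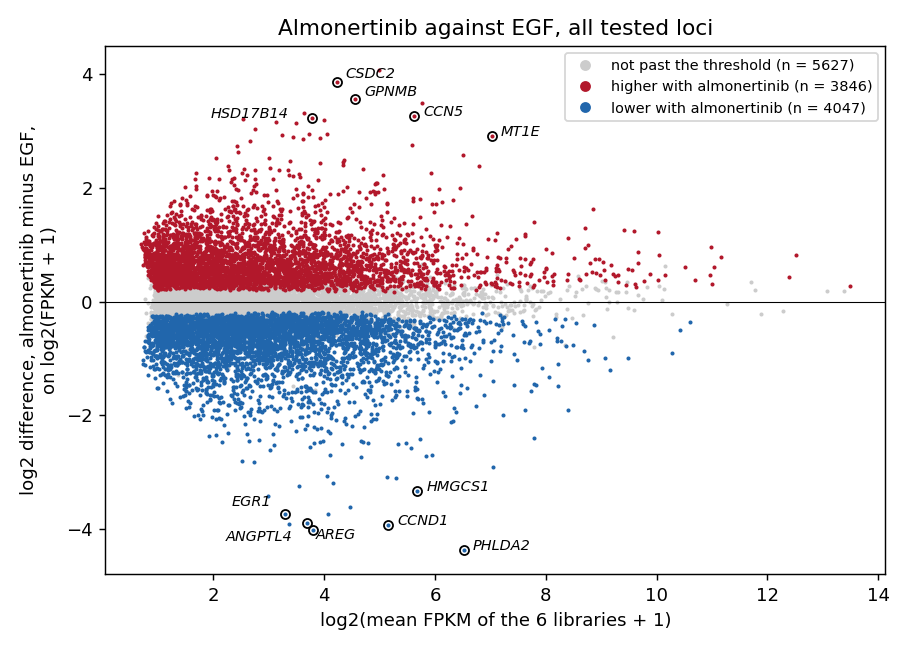
Each point is 1 of 13520 loci, with the log2 of the mean FPKM of the 6 libraries plus 1 on the horizontal axis and the log2 difference, almonertinib minus EGF, on the vertical axis; red points are higher with almonertinib, blue points lower, grey points not past the threshold, and circles mark named genes. The points reach 3.87 for CSDC2 and -4.38 for PHLDA2 among the circled genes, and few loci at the highest levels lie beyond a 2-fold difference.

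Of the 6 genes that mark the comparison, 2 were high with almonertinib. The 6 genes were given with the comparison and chosen with earlier results of these data known. Their differences and p-values thus describe these genes and are no independent test of the comparison. GPNMB (ENSG00000136235), a glycoprotein of lysosome-related organelles and the cell surface, had 44.7, 38.8 and 43.3 FPKM in the almonertinib libraries, 2.98, 2.38 and 2.62 FPKM in the EGF libraries and 15.1, 16.9 and 14.96 FPKM in control. CSDC2 (ENSG00000172346), a cold-shock domain RNA-binding protein, had 33.4, 38.9 and 29.7 FPKM with almonertinib, 1.34, 1.66 and 1.15 FPKM with EGF and 8.82, 12.8 and 12.9 FPKM in control. For both genes each almonertinib library was above each control library, and each control library above each EGF library. The log2 differences were 3.56 ± 0.093 for GPNMB (adjusted p = 1.22e-06) and 3.87 ± 0.12 for CSDC2 (adjusted p = 2.11e-06), with the error given as SE and p from limma, here and below.

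The other 4 were high with EGF. PHLDA2 (ENSG00000181649), an imprinted pleckstrin homology-like protein, had 6.37, 8.17 and 7.77 FPKM with almonertinib, 159.6, 187 and 175 FPKM with EGF and 38.2, 43.3 and 42.6 FPKM in control. ANGPTL4 (ENSG00000167772), a secreted inhibitor of lipoprotein lipase, had 0.682, 0.6004 and 0.542 FPKM with almonertinib, 23.8, 27.01 and 24.6 FPKM with EGF and 2.62, 3.38 and 2.96 FPKM in control. CCND1 (ENSG00000110092), which encodes cyclin D1, the partner of CDK4 and CDK6 in G1, had 3.28, 3.51 and 3.33 FPKM with almonertinib, 70.2, 64.3 and 63.5 FPKM with EGF and 19.99, 18.9 and 16.6 FPKM in control. None of these groups of libraries overlapped, and control stood between them each time. The almonertinib and EGF libraries stood apart at 64.3% of all tested loci. FGFBP1 (ENSG00000137440), a secreted carrier of fibroblast growth factors, had 0.331, 0.30 and 0.2205 FPKM with almonertinib, 17.5, 19.7 and 18.02 FPKM with EGF and 2.596, 2.84 and 3.29 FPKM in control. Its almonertinib values were below 1 FPKM, as were those of ANGPTL4, so both genes passed the filter through the EGF libraries alone. For these genes the filter thus already kept the almonertinib and EGF libraries apart. The log2 differences were -4.38 ± 0.11 for PHLDA2 (adjusted p = 1.16e-06), -4.02 ± 0.083 for ANGPTL4 (adjusted p = 8.00e-07), -3.94 ± 0.073 for CCND1 (adjusted p = 8.00e-07) and -3.92 ± 0.084 for FGFBP1 (adjusted p = 8.00e-07). As ratios of group means, EGF over almonertinib was 23.4 for PHLDA2 and 19.6 for CCND1, and almonertinib over EGF was 15.9 for GPNMB and 24.6 for CSDC2.

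**Figure D2:**
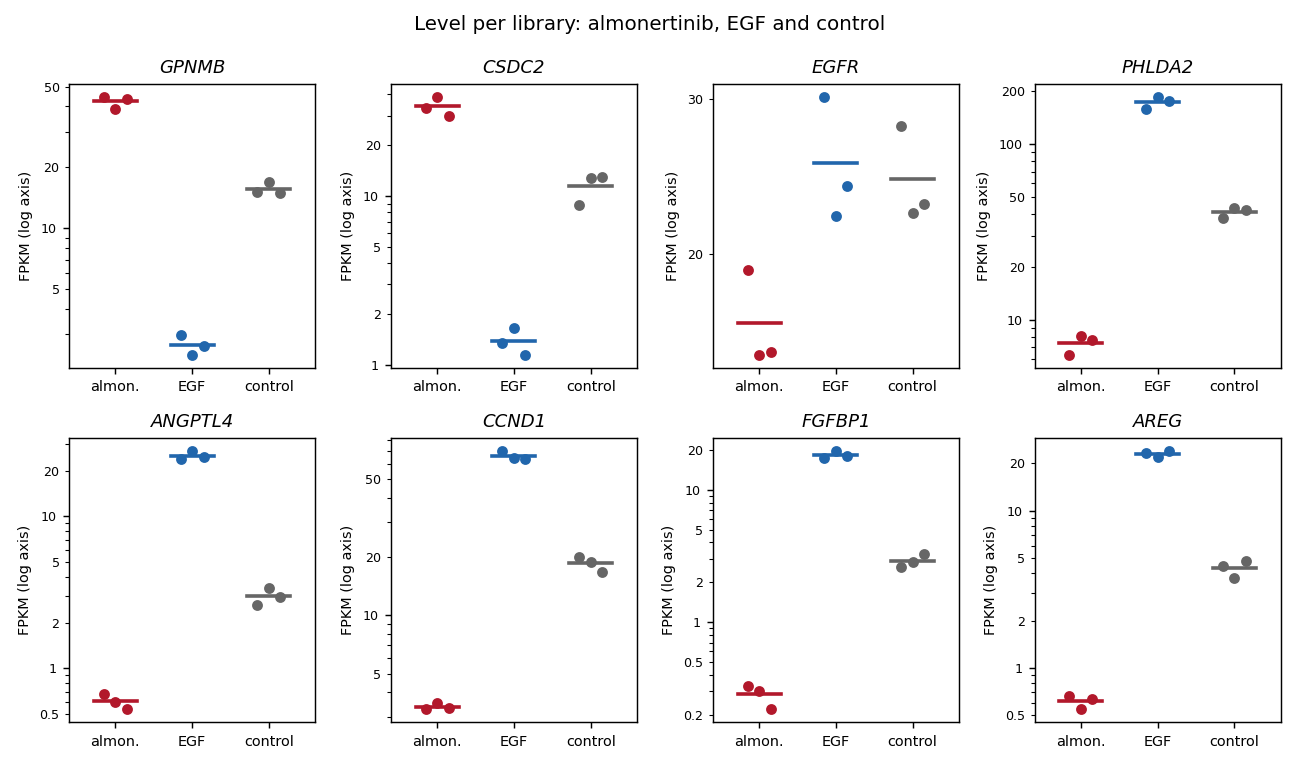
FPKM on a log axis in each library for 8 genes, with almonertinib in red, EGF in blue and control in grey; points are libraries and lines are means of 3. In GPNMB and CSDC2 the red points are the highest and in PHLDA2, ANGPTL4, CCND1, FGFBP1 and AREG the lowest, with control between in all of these, while in EGFR the control points lie among the EGF points.

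The receptor and most of its ligands were lower with almonertinib. EGFR (ENSG00000146648) had 19.2, 15.4 and 15.5 FPKM with almonertinib, 30.2, 22.1 and 23.9 FPKM with EGF and 28.01, 22.3 and 22.8 FPKM in control. Every almonertinib library was below every EGF library, and control was level with EGF (log2 difference -0.57 ± 0.14, adjusted p = 0.009). ERBB2, the receptor with which EGFR often pairs, went the other way, with 11.6 ± 0.8902 FPKM with almonertinib and 7.17 ± 0.4305 FPKM with EGF (SD, n = 3 each, as for all means below; log2 difference 0.62), and its control mean of 11.1 ± 1.36 FPKM was level with almonertinib. Among the ligands, AREG (amphiregulin, ENSG00000109321) had 0.665, 0.549 and 0.635 FPKM with almonertinib, 23.2, 22.005 and 24.05 FPKM with EGF and 4.47, 3.72 and 4.77 FPKM in control, a log2 difference of -3.90 ± 0.078 (adjusted p = 8.00e-07). AREG was below 1 FPKM in each almonertinib library and was kept through EGF alone, and without it 5 of 7 tested genes of the list were lower. EREG (epiregulin) averaged 1.35 ± 0.103 FPKM with almonertinib and 7.07 ± 1.16 FPKM with EGF, HBEGF (heparin-binding EGF-like growth factor) 1.498 ± 0.277 FPKM with almonertinib and 5.67 ± 0.162 FPKM with EGF, and NRG1 (neuregulin 1, a ligand of ERBB3 and ERBB4) 1.11 ± 0.0571 FPKM with almonertinib and 4.81 ± 0.406 FPKM with EGF. TGFA, a further ligand of EGFR, was lower with almonertinib by a smaller amount, with a log2 difference of -0.69, while BTC, betacellulin, averaged 0.885 ± 0.271 FPKM with almonertinib and 1.06 ± 0.2697 FPKM with EGF and did not pass the threshold. In all 6 of 8 tested genes of the receptor family and its ligands were lower with almonertinib and 1 was higher, with a median difference of -1.06 against -0.03 over all tested loci. ERBB3, ERBB4, EPGN, NRG2 and the EGF transcript were below the filter.

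Genes that restrain the receptor did not move as a block. ERRFI1, which encodes the EGFR inhibitor MIG6, had 16.3, 14.5 and 18.4 FPKM with almonertinib, 63.1, 49.7 and 57.03 FPKM with EGF and 39.2, 28.5 and 31.7 FPKM in control (log2 difference -1.72 ± 0.12, adjusted p = 2.84e-05). The ubiquitin ligase CBL was lower with almonertinib (-0.80 on the log2 scale) and its relative CBLB higher (0.86), with means of 3.21 FPKM with almonertinib and 6.34 FPKM with EGF for CBL and of 4.18 FPKM with almonertinib and 1.86 FPKM with EGF for CBLB. LRIG1, a transmembrane protein that promotes EGFR turnover, averaged 17.8 ± 2.59 FPKM with almonertinib and 18.1 ± 0.7904 FPKM with EGF and did not pass the threshold. Of 9 tested restrainers 5 were lower, 1 was higher and 3 were not past the threshold.

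The genes of ERK feedback and output were low with almonertinib and high with EGF. Of 19 tested members, 18 were lower with almonertinib, against 29.9% of all tested loci, and the median difference was -1.63. DUSP6, SPRY4, SPRED1 and EPHA4 were kept through the EGF libraries alone, and without them 14 of 15 were lower. DUSP6 (ENSG00000139318), the cytoplasmic phosphatase of ERK, had 0.334, 0.373 and 0.322 FPKM with almonertinib, 13.96, 12.9 and 13.5 FPKM with EGF and 2.25, 2.09 and 2.14 FPKM in control. FOSL1, a partner of JUN in the AP-1 factor, had 1.605, 0.978 and 1.42 FPKM with almonertinib, 27.7, 31.5 and 31.2 FPKM with EGF and 5.45, 7.27 and 6.89 FPKM in control. SPRY4, a Sprouty inhibitor of the pathway, had 0.417, 0.357 and 0.485 FPKM with almonertinib, 9.34, 8.91 and 8.61 FPKM with EGF and 2.49, 2.26 and 2.15 FPKM in control. The groups did not overlap in FOSL1, as the almonertinib and EGF libraries did not at 64.3% of all tested loci. For DUSP6 and SPRY4 the filter already kept the almonertinib and EGF libraries apart. The log2 differences were -3.43 for DUSP6, -3.74 for FOSL1 and -2.81 for SPRY4. Smaller differences were found for the phosphatases DUSP4 (-1.71), DUSP5 (-1.63) and DUSP7 (-0.88), the ETS factors ETV4 (-1.40) and ETV5 (-1.73) and the ephrin receptor EPHA2 (-2.19). SPRY1, a further Sprouty gene, was the member not past the threshold, with 2.61 ± 0.281 FPKM with almonertinib and 2.76 ± 0.161 FPKM with EGF. Control lay between the groups for 16 of the 19. The median place of control was 0.50 on a scale where 0 is the EGF mean and 1 the almonertinib mean. On log2(FPKM + 1), control thus stood about as far from EGF as from almonertinib. Adding 1 shrinks differences between values near or below 1 FPKM, and the place was not computed with another offset.

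Control did not sit at the same place for the immediate early transcription factors. EGR1, a zinc finger factor induced within the earliest response to growth factors, had 0.301, 0.431 and 0.3798 FPKM with almonertinib, 16.4, 19.2 and 16.3 FPKM with EGF and 12.4, 14.9 and 13.8 FPKM in control. Its control libraries lay just below the EGF libraries, at a place of 0.08, far from almonertinib (log2 difference between almonertinib and EGF -3.74 ± 0.094, adjusted p = 1.16e-06). FOS had the same order, with 0.483, 0.424 and 0.374 FPKM with almonertinib, 3.104, 3.26 and 3.38 FPKM with EGF and 2.34, 2.82 and 2.84 FPKM in control, a place of 0.14. JUN, in contrast, had 8.67, 8.01 and 8.25 FPKM with almonertinib, 26.1, 23.5 and 25.04 FPKM with EGF and 10.3, 10.4 and 10.4 FPKM in control, so that control stood near almonertinib at a place of 0.80. MYC, a driver of growth and ribosome synthesis, averaged 32.8 ± 1.01 FPKM with almonertinib and 74.7 ± 3.32 FPKM with EGF, with control at 40.96 ± 0.402 FPKM and a place of 0.73. Of 17 tested members 12 were lower with almonertinib, 0 were higher and 5 were not past the threshold (median difference -0.99); FOS, EGR1 and EGR3 were kept through EGF alone, and 9 of the other 14 were lower. JUND, IER2, KLF2, ZFP36 and ATF3 did not pass the threshold. KLF10, KLF6 and JUNB were among the lower genes, with log2 differences of -1.37 for KLF10, -1.17 for KLF6 and -0.99 for JUNB.

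The inhibitors of differentiation, ID1 to ID3, which bind and block basic helix-loop-helix factors and are targets of BMP signalling, were higher with almonertinib. ID3 had 76.8, 82.5 and 89.2 FPKM with almonertinib, 11.3, 12.03 and 10.99 FPKM with EGF and 27.8, 32.6 and 33.1 FPKM in control (log2 difference 2.75 ± 0.082, adjusted p = 1.46e-06). ID2 had 22.3, 22.7 and 24.5 FPKM with almonertinib, 4.97, 3.95 and 4.62 FPKM with EGF and 5.61, 7.13 and 6.25 FPKM in control, a difference of 2.14. ID1 averaged 62.6 ± 4.28 FPKM with almonertinib and 36.5 ± 2.13 FPKM with EGF and 33.5 ± 5.59 FPKM in control, so for ID1 control was level with EGF, for ID2 near it and for ID3 midway. BAMBI, a decoy receptor for TGF-beta and BMP, was also higher (1.23), whereas the ubiquitin ligase SMURF2 was lower (-0.57). Of 12 tested genes of this list 7 were higher, 1 was lower and 4 were not past the threshold.

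Genes of DNA replication and mitosis were lower with almonertinib. Of 29 tested genes of G1/S and DNA replication, 28 were lower and 0 higher, with a median difference of -1.28; MCM10, CDC6, POLA1 and POLE2 were kept through EGF alone, and 24 of the other 25 were lower. All 29 tested genes of G2/M and mitosis were lower, with a median of -1.71, of which CENPE was kept through EGF alone. In bulk RNA, a smaller share of cycling cells and less of these transcripts per cell cannot be told apart. CDC45, a part of the replicative helicase, had 1.23, 1.19 and 1.22 FPKM with almonertinib, 9.72, 12.1 and 11.1 FPKM with EGF and 1.86, 2.702 and 2.42 FPKM in control. RRM2, a subunit of ribonucleotide reductase, had 1.01, 0.881 and 1.17 FPKM with almonertinib, 9.596, 8.55 and 9.36 FPKM with EGF and 1.82, 1.86 and 1.905 FPKM in control. The groups did not overlap in either gene, as the almonertinib and EGF libraries did not at 64.3% of all tested loci. The differences were -2.43 ± 0.095 for CDC45 (adjusted p = 3.22e-06) and -2.33 ± 0.091 for RRM2 (adjusted p = 3.22e-06). MKI67, the proliferation marker Ki-67, averaged 3.32 ± 0.286 FPKM with almonertinib and 19.7 ± 4.07 FPKM with EGF, with 6.21 ± 1.46 FPKM in control. CCNB1, cyclin B1 of mitotic entry, averaged 33.97 ± 3.85 FPKM with almonertinib and 109 ± 3.61 FPKM with EGF, with 43.9 ± 2.08 FPKM in control. Control thus lay much nearer almonertinib than EGF, with a median place of 0.81 for the called G1/S genes and 0.81 for the G2/M genes. It was level with almonertinib in 14 of the 29 G1/S genes and between the groups in 13, and level with almonertinib in 17 of the 29 G2/M genes and between in 12. Level means that the ranges overlapped at some point, so the means can still differ. The median log2 difference, almonertinib minus control, was -0.21 for the G1/S list and -0.35 for the G2/M list.

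CDT1, the licensing factor that loads the MCM helicase, was the G1/S gene that did not differ past the threshold. It had 7.12, 7.24 and 6.31 FPKM with almonertinib, 6.08, 7.93 and 6.62 FPKM with EGF and 2.73, 3.697 and 3.04 FPKM in control. The treated groups overlapped and all control libraries lay below both. The estimate of 0.01 ± 0.11 changed sign under other settings without passing the threshold, reaching -0.07 when scaled to TPM, -0.01 without almonertinib replicate 1 or without EGF replicate 3, -0.02 without almonertinib replicate 2 and -0.07 without EGF replicate 1.

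The promoters of the G1/S genes were read for the binding motif of E2F factors, which drive these genes. In the RefSeq promoters of GRCh38.p14, each 300 bases from 250 before to 50 after the transcript start, the letters TTTGGCG stood on either strand in 9 of 25 G1/S genes that had a promoter (36.0%), against 286 of all 9389 tested loci with a promoter (3.05%). The variant TTTCCCG stood in 9 of the 25 (36.0%), against 647 of 9389 (6.89%). The genes with TTTGGCG were MCM6, MCM10, CDC6, CDC45, CDT1, GINS1, POLA1, POLE2 and E2F1, so it was present in CDT1 too. The promoters of CDC6 (chr17:40287629-40287928, plus strand) and CDC45 (chr22:19479670-19479969, plus strand) are shown as 2 of the G1/S genes with the largest differences, 5′ to 3′, with TTTGGCG in capitals. In CDC6 it begins at -28 and again at 7 relative to the start, and in CDC45 at -25.
CDC6: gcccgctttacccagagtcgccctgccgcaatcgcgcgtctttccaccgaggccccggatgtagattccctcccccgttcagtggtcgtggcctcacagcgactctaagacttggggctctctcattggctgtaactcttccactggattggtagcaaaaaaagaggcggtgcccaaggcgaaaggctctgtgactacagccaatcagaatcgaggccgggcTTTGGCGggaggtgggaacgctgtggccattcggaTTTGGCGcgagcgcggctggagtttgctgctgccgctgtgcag
CDC45: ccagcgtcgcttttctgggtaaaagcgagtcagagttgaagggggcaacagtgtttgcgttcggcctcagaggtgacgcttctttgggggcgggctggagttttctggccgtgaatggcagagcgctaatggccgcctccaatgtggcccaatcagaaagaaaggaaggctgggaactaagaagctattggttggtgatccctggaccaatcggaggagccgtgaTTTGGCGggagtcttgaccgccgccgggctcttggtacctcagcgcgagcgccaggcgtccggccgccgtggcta
CDC6, which recruits the MCM helicase to origins, had 0.832, 0.941 and 0.991 FPKM with almonertinib, 6.905, 6.04 and 6.77 FPKM with EGF and 1.33, 1.36 and 1.47 FPKM in control, a log2 difference of -1.98 ± 0.087. It was kept through the EGF libraries alone. A match of letters is a description of these windows and does not show that a factor binds there. The G1/S list and the HIF1, FOXO and lysosomal lists below hold genes known to answer to the factor whose letters were searched. A share above that of all promoters can thus come from the choice of list, whatever the treatments did.

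Among cyclins and their inhibitors, CCND1 was joined by CCND3 (-0.79), CCNE1 (-0.66) and E2F1 (-1.92) on the lower side, the last also counted in the G1/S list. CDK4 averaged 30.1 ± 1.65 FPKM with almonertinib and 30.2 ± 2.26 FPKM with EGF and did not pass the threshold. The inhibitors were split. CDKN1A, which encodes p21, was lower with almonertinib (11.3 ± 0.613 FPKM with almonertinib and 17.7 ± 0.375 FPKM with EGF), and so were CDKN2B (-0.87) and CDKN2D (-0.98). CDKN1B, which encodes p27, was higher (6.59 ± 1.88 FPKM with almonertinib and 3.74 ± 0.835 FPKM with EGF; log2 difference 0.67, adjusted p = 0.0216), as were CDKN1C (0.57) and CDKN2C (0.37). These 3 higher calls were not firm: 1 remained past the threshold without EGF replicate 1, 1 without EGF replicate 2, and 0 at an adjusted p under 0.01 or with no filter on low levels. Of 14 tested members 8 were lower, 3 higher and 3 not past the threshold.

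Cholesterol synthesis had the lowest median of the lists, -1.95. Of 24 tested members 21 were lower with almonertinib, 2 were higher and PMVK was not past the threshold. HMGCS1, which makes HMG-CoA, had 8.94, 6.897 and 9.004 FPKM with almonertinib, 93.4, 86.8 and 95.7 FPKM with EGF and 18.9, 17.1 and 15.9 FPKM in control. MSMO1, a sterol demethylase, had 6.35, 6.09 and 9.24 FPKM with almonertinib, 75.8, 57.1 and 75.6 FPKM with EGF and 19.5, 10.7 and 12.5 FPKM in control. SQLE, squalene epoxidase, had 2.14, 2.02 and 3.45 FPKM with almonertinib, 31.8, 23.05 and 30.7 FPKM with EGF and 7.76, 5.595 and 5.98 FPKM in control. In these genes every EGF library was above every other library and control lay between, nearer almonertinib. The log2 differences were -3.33 ± 0.11 for HMGCS1 (adjusted p = 2.25e-06), -3.11 ± 0.17 for MSMO1 (adjusted p = 1.21e-05) and -3.07 ± 0.18 for SQLE (adjusted p = 1.56e-05). INSIG1, which retains SREBP in the endoplasmic reticulum, averaged 15.7 ± 0.655 FPKM with almonertinib and 87.9 ± 5.79 FPKM with EGF. The 2 members on the higher side were LSS, lanosterol synthase (67.7 ± 10.2 FPKM with almonertinib and 42.4 ± 3.48 FPKM with EGF), and TM7SF2, a sterol reductase (10.3 ± 1.02 FPKM with almonertinib and 5.42 ± 0.748 FPKM with EGF).

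Of 14 tested genes of fatty acid synthesis 11 were lower with almonertinib and 3 higher. SCD, the desaturase that makes oleate, had 72.4, 64.3 and 69.9 FPKM with almonertinib, 384, 354 and 368 FPKM with EGF and 106, 103 and 98.7 FPKM in control (log2 difference -2.40 ± 0.080, adjusted p = 2.25e-06). FASN, fatty acid synthase, averaged 34.2 ± 7.39 FPKM with almonertinib and 126 ± 14.3 FPKM with EGF, and ACLY, which supplies acetyl-CoA, 23.2 ± 2.35 FPKM with almonertinib and 77.96 ± 3.62 FPKM with EGF. Regulators of the pathway were on both sides. MLXIPL, which encodes the carbohydrate-response factor ChREBP, had 21.1, 20.3 and 15.9 FPKM with almonertinib, 1.27, 1.39 and 1.15 FPKM with EGF and 11.1, 11.3 and 13.1 FPKM in control, a difference of 3.14 ± 0.12 (adjusted p = 3.22e-06), and every control library lay between the groups. SREBF1, which encodes SREBP1, averaged 49.5 ± 6.06 FPKM with almonertinib and 32.1 ± 2.28 FPKM with EGF (0.60), whereas SREBF2, which encodes SREBP2, was lower (-0.76). ACACB was the third higher member (0.80) and was kept through almonertinib alone.

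Glycolysis was lower with almonertinib, with control close to almonertinib. Of 22 tested members 20 were lower, with a median difference of -0.99 and a median control place of 0.84. LDHA, lactate dehydrogenase A, had 137, 127 and 162 FPKM with almonertinib, 526, 519 and 556 FPKM with EGF and 198, 178 and 195 FPKM in control. PGK1, phosphoglycerate kinase, had 85.1, 75.6 and 86.4 FPKM with almonertinib, 302, 317 and 318 FPKM with EGF and 98.1, 105 and 105 FPKM in control. Both differed by -1.91 on the log2 scale, with no overlap of the groups. The almonertinib and EGF libraries did not overlap at 64.3% of all tested loci. GAPDH, often taken as a constant gene, averaged 1367 ± 157 FPKM with almonertinib and 1756 ± 202 FPKM with EGF, a difference of -0.36 ± 0.13 (adjusted p = 0.0418). PFKM, a phosphofructokinase isoform, was the member on the higher side (18.8 ± 0.9397 FPKM with almonertinib and 13.6 ± 0.459 FPKM with EGF). The 4 monocarboxylate and glucose carriers of the list, SLC16A1, SLC16A3, SLC2A1 and SLC2A3, were among the lower genes, with differences from -1.22 for SLC16A3 to -0.40 for SLC2A1.

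Other genes known to answer to the hypoxia factor HIF1 were lower in 15 of 20 tested cases, and higher in 2 (median -0.59); ANGPTL4 and PDK1 were kept through EGF alone, and without them 13 of 18 were lower. Beside ANGPTL4, these were led by CA9, carbonic anhydrase IX, with 3.705, 3.16 and 4.07 FPKM with almonertinib, 23.8, 25.99 and 24.3 FPKM with EGF and 3.57, 4.55 and 4.696 FPKM in control, and by VEGFA, the endothelial growth factor, which averaged 6.21 ± 0.125 FPKM with almonertinib and 26.99 ± 2.28 FPKM with EGF and 9.23 ± 0.568 FPKM in control. For CA9 control was level with almonertinib, at a place of 0.93. ADM, adrenomedullin, differed little (-0.27), and CA12 (0.45) and MXI1 (0.42) were higher with almonertinib. The hypoxia response core TACGTG stood in the promoters of 6 of 17 of these genes (35.3%), against 313 of 9389 (3.33%).

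Ribosome biogenesis and the ribosomal proteins went in opposite directions. Of 24 tested biogenesis genes 22 were lower with almonertinib and 2, UBTF and NOB1, were higher, with a median of -0.91. NOLC1, a nucleolar chaperone, had 13.7, 12.2 and 13.7 FPKM with almonertinib, 44.4, 39.1 and 42.1 FPKM with EGF and 24.5, 21.6 and 21.5 FPKM in control, and RRS1, an assembly factor of the large subunit, averaged 5.17 ± 0.459 FPKM with almonertinib and 20.6 ± 1.77 FPKM with EGF. The differences were -1.60 ± 0.082 for NOLC1 (adjusted p = 8.95e-06) and -1.81 ± 0.095 for RRS1 (adjusted p = 1.01e-05). Of 30 cytosolic ribosomal proteins 16 were higher, 0 were lower and 14 were not past the threshold, with a median of 0.34. RPS2 averaged 2525 ± 219 FPKM with almonertinib and 1649 ± 181 FPKM with EGF, and RPLP2, a stalk protein, 643 ± 98.05 FPKM with almonertinib and 395 ± 68.8 FPKM with EGF. The count of 16 fell to 9 without almonertinib replicate 2, without EGF replicate 1 or without EGF replicate 3, and to 8 at an adjusted p under 0.01; without almonertinib replicate 3, 3 members were called lower. Ribosomal proteins have many processed pseudogenes that can take part of their reads. Control was nearer EGF for the called ribosomal proteins, with a median place of 0.33, against 0.67 for the biogenesis genes. Over all 30 ribosomal proteins, however, control was undecided for 17 and level with EGF for 11. Its libraries also differed among themselves, with 1568, 2262 and 2011 FPKM for RPS2.

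Genes known to be induced by FOXO factors were mostly higher with almonertinib, in 16 of 21 tested cases, with 1 lower and a median of 0.56. YPEL3, a growth suppressor, had 51.7, 56.8 and 54.2 FPKM with almonertinib, 9.89, 11.5 and 10.8 FPKM with EGF and 22.9, 29.5 and 30.9 FPKM in control. FBXO32, the ubiquitin ligase atrogin-1, had 19.8, 18.9 and 21.2 FPKM with almonertinib, 4.299, 4.05 and 3.97 FPKM with EGF and 13.3, 13.04 and 13.1 FPKM in control. PIK3IP1, a membrane inhibitor of PI3K, had 47.6, 45.7 and 44.1 FPKM with almonertinib, 10.2, 12.2 and 11.04 FPKM with EGF and 25.6, 30.6 and 28.5 FPKM in control. The groups did not overlap in these 3 genes, as the almonertinib and EGF libraries did not at 64.3% of all tested loci. The differences were 2.23 ± 0.081 for YPEL3 (adjusted p = 2.95e-06), 2.04 ± 0.077 for FBXO32 (adjusted p = 3.10e-06) and 1.95 ± 0.084 for PIK3IP1 (adjusted p = 4.84e-06). PDK4, which turns glucose carbon away from the mitochondria, averaged 9.53 ± 1.61 FPKM with almonertinib and 2.35 ± 0.523 FPKM with EGF. TRIM63 was kept through almonertinib alone, and without it 15 of 20 were higher. BNIP3, which also answers to HIF1, was the lower member (-1.53), and TXNIP, CCNG2, RBL2 and SESN1 were not past the threshold. The forkhead motif TGTTTAC stood in the promoters of 3 of 18 of these genes (16.7%), TXNIP, BCL2L11 and YPEL3, against 220 of 9389 (2.34%).

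Lysosomal and autophagy genes were higher with almonertinib in 15 of 27 tested cases, lower in 3 and not past the threshold in 9 (median 0.46), GPNMB included; HEXA was kept through almonertinib alone, and without it 14 of 26 were higher. CTSF, the cysteine protease cathepsin F, had 104, 105 and 111 FPKM with almonertinib, 25.9, 26.6 and 26.1 FPKM with EGF and 58.7, 68.6 and 67.4 FPKM in control. CTSA, the carboxypeptidase that protects lysosomal hydrolases, had 141, 146 and 118 FPKM with almonertinib, 49.7, 56.4 and 48.7 FPKM with EGF and 80.6, 95.9 and 92.8 FPKM in control. TFEB, the regulator of the lysosomal genes, averaged 6.74 ± 0.4803 FPKM with almonertinib and 1.87 ± 0.0872 FPKM with EGF. Almonertinib was the highest group and EGF the lowest in each of these genes, and the differences were 1.98 ± 0.067 for CTSF (adjusted p = 2.29e-06), 1.37 ± 0.11 for CTSA (adjusted p = 4.87e-05) and 1.43 ± 0.083 for TFEB (adjusted p = 1.41e-05). The autophagy genes GABARAPL1 (1.45), ULK1 (1.04), SQSTM1 (1.003) and ATG9B (1.53) were higher as well. The membrane proteins LAMP1 and LAMP2 averaged 65.7 FPKM with almonertinib and 57.2 FPKM with EGF for LAMP1 and 36.6 FPKM with almonertinib and 33.3 FPKM with EGF for LAMP2, and neither passed the threshold. GLA, alpha-galactosidase, was the member furthest to the lower side (-0.89).

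The letters TCACGTG, the core of the element through which TFEB is known to act, stood on either strand in the promoters of 8 of 20 lysosomal and autophagy genes (40.0%), against 574 of 9389 (6.11%). The genes were LAMP1, CTSA, CTSD, CTSF, MCOLN1, ATP6V0D1, GAA and NEU1, of which 6 were higher with almonertinib and LAMP1 and ATP6V0D1 were not past the threshold. CTSF (chr11:66568557-66568856, minus strand, shown along the gene) and CTSA (chr20:45891085-45891384, plus strand) are printed as the lysosomal enzymes with a match and the largest differences, in RefSeq GRCh38.p14 and 5′ to 3′. Capitals mark the matches, which in CTSF read as the reverse complement and begin at -123, and in CTSA begin at -43, -26 and -25, the last pair overlapping on opposite strands.
CTSF: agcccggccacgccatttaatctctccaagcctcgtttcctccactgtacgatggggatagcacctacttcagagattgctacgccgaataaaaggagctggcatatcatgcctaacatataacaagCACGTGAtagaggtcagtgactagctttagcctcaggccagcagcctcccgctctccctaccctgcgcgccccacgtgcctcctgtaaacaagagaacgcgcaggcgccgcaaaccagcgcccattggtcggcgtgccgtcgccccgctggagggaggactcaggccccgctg
CTSA: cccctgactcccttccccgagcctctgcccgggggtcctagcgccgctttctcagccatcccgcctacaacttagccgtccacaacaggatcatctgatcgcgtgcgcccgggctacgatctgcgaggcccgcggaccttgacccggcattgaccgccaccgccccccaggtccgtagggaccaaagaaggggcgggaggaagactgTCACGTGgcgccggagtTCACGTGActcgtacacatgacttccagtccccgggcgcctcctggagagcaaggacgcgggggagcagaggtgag
Over all loci that differed by at least 2-fold, the share of promoters with TCACGTG was 6.71% of 447 higher and 5.59% of 608 lower loci, both near the 6.11% of all promoters. The share with TTTGGCG was 1.12% of the higher and 4.28% of the lower loci, against 3.05% of all. The AP-1 letters TGANTCA stood in 7.16% of the higher and 7.40% of the lower loci, against 4.64% of all, and in 0 of the 10 ERK genes with a promoter.

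**Figure D3:**
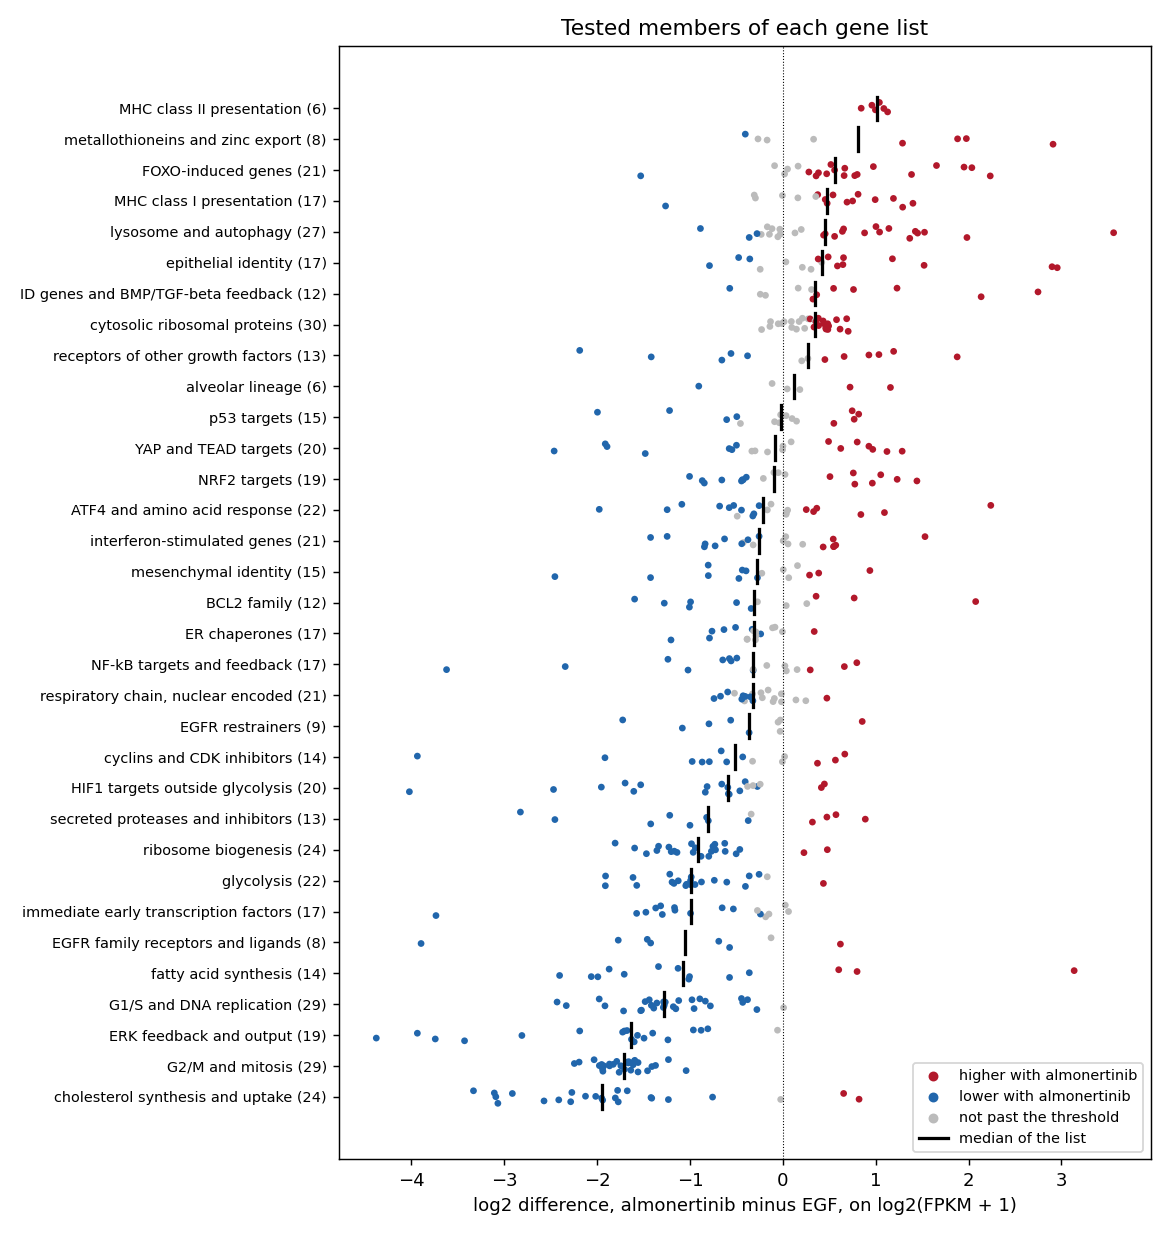
Each point is a tested member of a gene list, with the log2 difference, almonertinib minus EGF, on the horizontal axis; red is higher with almonertinib, blue lower, grey not past the threshold, black bars are list medians and numbers in brackets are tested members. The medians run from -1.95 for cholesterol synthesis and -1.71 for G2/M up to 0.81 for metallothioneins and 1.02 for MHC class II.

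Metallothioneins, small proteins that bind zinc and copper, were higher with almonertinib in 4 of 8 tested cases of their list. MT1E had 224, 218 and 244 FPKM with almonertinib, 28.5, 29.2 and 30.7 FPKM with EGF and 154, 205 and 147 FPKM in control (log2 difference 2.91 ± 0.077, adjusted p = 1.22e-06). MT2A averaged 589 ± 43.5 FPKM with almonertinib and 241 ± 22.8 FPKM with EGF, MT1F 16.8 ± 0.245 FPKM with almonertinib and 3.84 ± 0.171 FPKM with EGF and MT1M 7.51 ± 1.46 FPKM with almonertinib and 1.15 ± 0.165 FPKM with EGF. These genes are near-identical in sequence, so the reads of each are not certain to be its own. MT1A, MT1X and the zinc exporter SLC30A1 did not pass the threshold, and MTF1, the factor that induces them, was lower (-0.40).

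Most genes of antigen presentation were higher with almonertinib. All 6 tested genes of the MHC class II list were higher, with differences from 0.84 to 1.13 and control between the groups in each; HLA-DMB was kept through almonertinib alone, the other 5 were not, and 8 listed genes were below the filter. CD74, the invariant chain, had 93.99, 90.7 and 88.3 FPKM with almonertinib, 42.1, 43.9 and 40.9 FPKM with EGF and 69.4, 75.5 and 73.1 FPKM in control. The leukocyte markers, whose part in this was not tested, summed to 38.02 to 44.8 FPKM with almonertinib, 38.6 to 41.4 FPKM with EGF and 32.8 to 43.3 FPKM in control, mostly CD14, and PTPRC, the pan-leukocyte marker CD45, stayed below 1 FPKM throughout. CSF1R, a receptor of macrophages and the other leukocyte marker above 1 FPKM, had 2.62, 3.03 and 2.59 FPKM with almonertinib, 1.53, 1.45 and 1.73 FPKM with EGF and 1.88, 2.39 and 2.44 FPKM in control, and was higher with almonertinib (log2 difference 0.55 ± 0.091, adjusted p = 0.00162). Of 17 tested class I genes 11 were higher and 1 was lower (median 0.48). HLA-E averaged 272 ± 6.19 FPKM with almonertinib and 119 ± 4.09 FPKM with EGF, and NLRC5, the activator of class I genes, 20.03 ± 3.68 FPKM with almonertinib and 7.51 ± 0.373 FPKM with EGF. TAP2, a subunit of the peptide transporter, was the lower member, with 1.01 ± 0.0901 FPKM with almonertinib and 3.82 ± 0.435 FPKM with EGF, while its partner TAP1 averaged 24.4 ± 1.16 FPKM with almonertinib and 21.7 ± 0.711 FPKM with EGF and did not pass the threshold. The HLA genes share much of their sequence, so reads may be split among them. Interferon-stimulated genes were mixed, with a share on the higher side near the 28.4% of all tested loci: 6 of 21 were higher, led by STAT2 (1.53), or 5 of 20 without IRF9, which was kept through almonertinib alone, and 9 were lower, led by OASL (-1.42) and OAS3 (-1.25).

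Of 17 tested inflammatory genes under NF-kB 9 were lower with almonertinib, 3 were higher and 5 were not past the threshold, where 29.9% of all tested loci were lower. CXCL8 and IL6 were kept through EGF alone, and without them 7 of 15 were lower and 3 higher. PTX3, the secreted pattern receptor pentraxin 3, had 1.95, 2.46 and 2.58 FPKM with almonertinib, 41.1, 37.7 and 40.9 FPKM with EGF and 5.79, 6.45 and 7.49 FPKM in control (log2 difference -3.62 ± 0.095, adjusted p = 1.22e-06). The chemokine CXCL8 averaged 0.376 ± 0.2703 FPKM with almonertinib and 5.93 ± 0.738 FPKM with EGF, and the cytokine IL6 0.434 ± 0.0212 FPKM with almonertinib and 2.38 ± 0.0924 FPKM with EGF. NFKBIA, the inhibitor induced by NF-kB, averaged 34.4 ± 0.1195 FPKM with almonertinib and 33.5 ± 0.542 FPKM with EGF and did not pass the threshold. Hyaluronan synthase HAS3 was another of the largest differences, with 2.77, 2.46 and 2.29 FPKM with almonertinib, 31.6, 31.6 and 30.2 FPKM with EGF and 6.01, 6.34 and 6.53 FPKM in control (difference -3.20).

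Genes of the amino acid and ATF4 response were split. PSAT1, an enzyme of serine synthesis, averaged 8.91 ± 0.783 FPKM with almonertinib and 37.99 ± 2.65 FPKM with EGF (log2 difference -1.98 ± 0.089, adjusted p = 5.77e-06), and TRIB3, a pseudokinase induced by stress, 16.9 ± 1.04 FPKM with almonertinib and 41.4 ± 1.97 FPKM with EGF. On the higher side, NUPR1, a stress-induced chromatin protein, had 14.95, 18.1 and 22.1 FPKM with almonertinib, 2.82, 3.01 and 3.35 FPKM with EGF and 7.795, 6.63 and 7.298 FPKM in control, and DDIT3, the stress factor CHOP, averaged 12.1 ± 2.19 FPKM with almonertinib and 5.06 ± 0.0441 FPKM with EGF. The almonertinib and EGF libraries did not overlap in these 4 genes, as at 64.3% of all tested loci. For TRIB3 control was level with almonertinib. Of 22 tested members 10 were lower, 6 were higher and 6 were not past the threshold. The higher side was near the 28.4% of all tested loci, of which 29.9% were lower. CHAC1 was kept through EGF alone, and without it 9 of 21 were lower. Control lay below both groups in 6 of the 22 genes, against 1.15% of all tested loci. The median log2 difference from control was 0.11 with almonertinib and 0.24 with EGF. Chaperones of the endoplasmic reticulum were lower in 7 of 17 cases, against 29.9% of all tested loci, and higher in 1, HERPUD1. SDF2L1 (-1.20) was furthest to the lower side. That count of 7 was 12 without almonertinib replicate 3 and 12 with the replicate number as a block, 11 without EGF replicate 2 and 4 without EGF replicate 3.

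Epithelial genes were split. LLGL2, a polarity protein, had 29.2, 31.8 and 24.5 FPKM with almonertinib, 2.67, 3.07 and 2.63 FPKM with EGF and 15.04, 20.9 and 18.8 FPKM in control, and TJP3, the tight junction protein ZO-3, had 17.7, 21.2 and 15.7 FPKM with almonertinib, 1.43, 1.64 and 1.5998 FPKM with EGF and 9.96, 11.3 and 12.3 FPKM in control. Their differences were 2.96 ± 0.11 for LLGL2 (adjusted p = 3.19e-06) and 2.90 ± 0.12 for TJP3 (adjusted p = 3.67e-06). CDH1, E-cadherin, averaged 3.71 ± 0.184 FPKM with almonertinib and 2.13 ± 0.177 FPKM with EGF, and its control mean of 5.69 ± 0.616 FPKM was above both. The keratins KRT7 (-0.79) and KRT8 (-0.36) were lower. In all 9 of 17 tested epithelial genes were higher and 3 lower. Control lay above both groups in 4 of these 17 genes, against 3.72% of all tested loci. Of 15 mesenchymal genes 8 were lower and 3 higher; ITGA5, an integrin subunit, averaged 26.5 ± 0.167 FPKM with almonertinib and 72.8 ± 4.11 FPKM with EGF, and VIM, vimentin, 203 ± 42.4 FPKM with almonertinib and 192 ± 11.3 FPKM with EGF, which did not pass the threshold. Among proteases, the collagenase MMP1, kept through EGF alone, averaged 0.645 ± 0.101 FPKM with almonertinib and 10.7 ± 0.436 FPKM with EGF, and PLAUR, the urokinase receptor, 6.63 ± 0.458 FPKM with almonertinib and 16.8 ± 1.39 FPKM with EGF; 8 of 13 tested proteases and inhibitors were lower and 4 higher, or 7 of 12 lower without MMP1. The YAP and TEAD list held 7 higher and 7 lower of 20 tested, against 28.4% higher and 29.9% lower of all tested loci. The counts were 6 and 6 of 18 without F3, kept through EGF alone, and ANKRD1, kept through almonertinib alone. In this list NT5E (-2.46) and CCN2 (-1.89) were lower and AXL (0.93) and ARHGEF17 (1.29) higher. Of its 20 tested genes, 5 had control above both groups, against 3.72% of all tested loci. Among alveolar lineage genes NKX2-1 was higher (5.26 ± 0.104 FPKM with almonertinib and 2.79 ± 0.153 FPKM with EGF) and FOXA2 lower (1.498 ± 0.223 FPKM with almonertinib and 3.67 ± 0.313 FPKM with EGF), with 3 of 6 tested not past the threshold and SFTPC, the other higher member, kept through almonertinib alone.

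In the BCL2 family 3 of 12 tested genes were higher, a share near the 28.4% of all tested loci. These 3 encode pro-apoptotic proteins, while the lower genes included both survival and pro-apoptotic ones. BMF, a pro-apoptotic BH3-only protein, had 10.5, 9.88 and 9.82 FPKM with almonertinib, 1.75, 1.54 and 1.59 FPKM with EGF and 9.397, 9.27 and 9.27 FPKM in control (log2 difference 2.08 ± 0.078, adjusted p = 3.10e-06). Control was close to almonertinib, at a place of 0.95. BCL2L11, which encodes BIM, was higher by a smaller amount (2.24 ± 0.134 FPKM with almonertinib and 1.53 ± 0.127 FPKM with EGF; 0.36), and so was BBC3, which encodes PUMA (0.77). The survival genes BCL2L1 (6.93 ± 0.193 FPKM with almonertinib and 22.98 ± 1.003 FPKM with EGF) and MCL1 (33.5 ± 3.95 FPKM with almonertinib and 68.2 ± 5.51 FPKM with EGF) were lower. So were the pro-apoptotic genes PMAIP1, which encodes NOXA (-1.28), and BAK1 (-0.99). BAK1 averaged 9.69 ± 0.898 FPKM with almonertinib and 20.2 ± 0.575 FPKM with EGF. Of 12 tested members 6 were lower, against 29.9% of all tested loci, 3 higher and 3 not past the threshold. Of the p53 targets, 4 of 15 were higher, 4 lower and 7 not past the threshold, with a median of -0.02. Both sides were near the 28.4% higher and 29.9% lower of all tested loci. AEN was kept through EGF alone, and without it 3 of 14 were lower.

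Receptors of other growth factors were also on both sides. PDGFRB, a receptor of platelet-derived growth factor, had 11.7, 11.9 and 9.14 FPKM with almonertinib, 2.29, 2.43 and 1.97 FPKM with EGF and 8.103, 9.49 and 9.32 FPKM in control. MET, the receptor of hepatocyte growth factor, had 14.8, 11.7 and 13.3 FPKM with almonertinib, 41.01, 33.5 and 37.04 FPKM with EGF and 28.1, 21.4 and 21.6 FPKM in control. The log2 differences were 1.88 ± 0.12 for PDGFRB (adjusted p = 1.97e-05) and -1.42 ± 0.11 for MET (adjusted p = 4.68e-05). PDGFRB is also a marker of fibroblasts and pericytes; of the 11 fibroblast and endothelial markers, 5 were tested, 4 were higher and 1 was lower with almonertinib. The lower marker, PECAM1, was kept through EGF alone and CDH5 through almonertinib alone, and the other 3 were all higher, while DCN, a defining fibroblast gene, was at 0 in 5 of the 6 libraries. The receptor kinase AXL averaged 10.2 ± 0.508 FPKM with almonertinib and 4.91 ± 0.164 FPKM with EGF and 12.6 ± 0.808 FPKM in control, with the control libraries above both groups. DDR1 (1.04), FGFR3 (1.19) and INSR (0.66) were higher; FGFR3 was kept through almonertinib alone and TYRO3, on the lower side, through EGF alone. IGF1R did not pass the threshold (0.27). Of 13 tested receptors 6 were higher, 5 lower and 2 not past the threshold, or 5 higher and 4 lower of 11 without FGFR3 and TYRO3. Over all tested loci 28.4% were higher and 29.9% lower.

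The oxidative stress genes under NRF2 held 7 higher and 8 lower of 19 tested, against 28.4% higher and 29.9% lower of all tested loci. AKR1C2 was kept through almonertinib alone, and without it 6 of 18 were higher. FTH1, the heavy chain of the iron store ferritin, averaged 1453 ± 61.5 FPKM with almonertinib and 619 ± 35.5 FPKM with EGF, and the light chain FTL 2666 ± 421 FPKM with almonertinib and 1357 ± 90.1 FPKM with EGF. The aldo-keto reductases AKR1C1 (1.44) and AKR1C3 (1.05) were higher and share much of their sequence. ME1 (-1.005) and GCLM (-0.87), a subunit of the enzyme that starts glutathione synthesis, were lower. Of 21 nuclear genes of the respiratory chain 8 were lower and 1 higher, with a median of -0.32, where 29.9% of all tested loci were lower. Without almonertinib replicate 3 the count of 8 was 13.

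Further genes were among the 12 largest differences in either direction without belonging to a list. CCN5, a matricellular protein, had 95.6, 95.7 and 73.1 FPKM with almonertinib, 8.96, 7.37 and 8.14 FPKM with EGF and 43.2, 61.8 and 50.3 FPKM in control. HSD17B14, a hydroxysteroid dehydrogenase, had 23.4, 26.04 and 21.7 FPKM with almonertinib, 1.68, 1.63 and 1.58 FPKM with EGF and 4.01, 5.34 and 6.69 FPKM in control. In both genes control lay between; for HSD17B14 it stood nearer EGF, at a place of 0.39, and for CCN5 nearer almonertinib, at 0.77. SPINK4, a secreted protease inhibitor, averaged 27.6 ± 1.28 FPKM with almonertinib and 2.17 ± 0.682 FPKM with EGF, CYP4F12, a cytochrome P450, 22.4 ± 1.19 FPKM with almonertinib and 2.04 ± 0.0461 FPKM with EGF, PNPLA7, a lysophospholipase, 15.8 ± 3.498 FPKM with almonertinib and 1.16 ± 0.158 FPKM with EGF, and SMIM1, a small membrane protein that carries the Vel blood group, 10.95 ± 0.529 FPKM with almonertinib and 0.4502 ± 0.0739 FPKM with EGF; SMIM1 was kept through almonertinib alone. Their log2 differences ran from 2.94 for PNPLA7 to 3.28 for CCN5, and control was between the groups in each.

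Control stood nearer almonertinib than EGF at most called loci. Of the 7893 called loci, 2568 (32.5%) had all 3 control libraries between the groups, 2986 (37.8%) had control level with almonertinib and 1130 (14.3%) level with EGF; 126 had control above both groups, 37 below both, and 1046 were undecided, with control libraries spread over several of these positions. All 3 control libraries can lie between only where the treated groups stand apart, and 6 of the 5627 loci not past the threshold had control between, so this share rises with the size of the difference by its definition. Among the loci at least 2-fold higher with almonertinib, control was between for 550 of 755 (72.8%), level with almonertinib for 174 and level with EGF for 11. Among those at least 2-fold lower, it was between for 502 of 833 (60.3%), level with almonertinib for 274 and level with EGF for 24. The control mean was nearer the almonertinib mean than the EGF mean at 5594 called loci (70.9%), and the median place was 0.65, with quartiles of 0.46 and 0.83. Without control replicate 1, the number of called loci with control level with EGF was 698 in place of 1130. When group means replaced ranges, the number of called loci with control between was 6756, so the counts depend on how strictly between is taken.

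**Figure D4:**
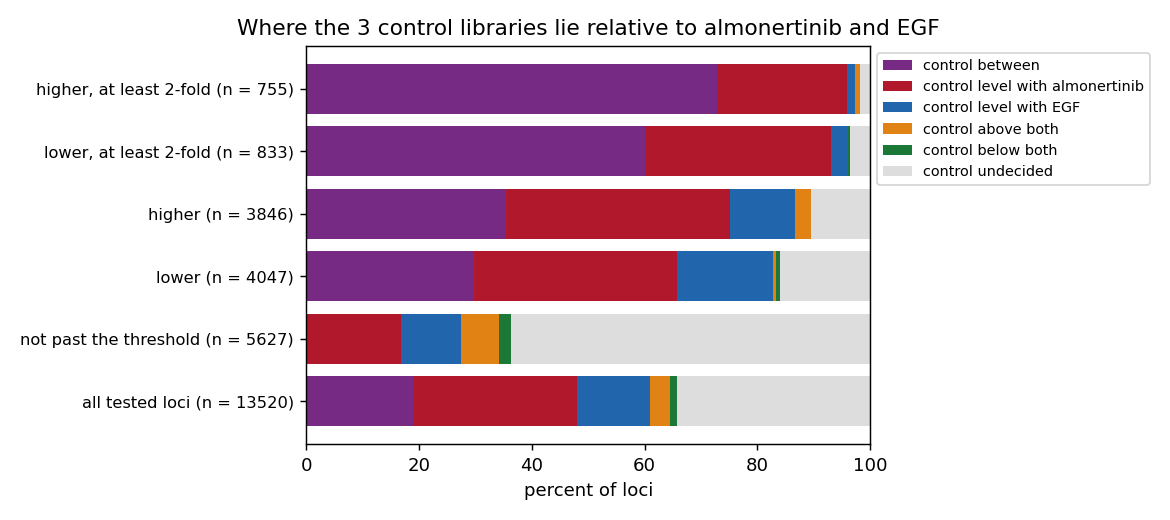
Stacked bars give the percent of loci whose 3 control libraries lay between almonertinib and EGF, level with almonertinib, level with EGF, above both, below both, or undecided, for loci by direction and size. Control lay between for 72.8% of loci at least 2-fold higher and 60.3% of loci at least 2-fold lower with almonertinib; between requires that the treated groups stand apart, so its share is not comparable across sizes of difference.

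A smaller set of loci had control outside both groups, 503 above and 156 below among all tested, of which 126 and 37 differed between almonertinib and EGF past the threshold; the 5 protein-coding genes with the widest gap on each side are given. Above both stood MUC16, the mucin that carries CA-125, with 3.2995, 2.45 and 1.67 FPKM with almonertinib, 1.498, 0.896 and 0.888 FPKM with EGF and 6.41, 5.04 and 4.895 FPKM in control. ST14, the membrane protease matriptase, had 14.7, 14.2 and 10.5 FPKM with almonertinib, 9.18, 10.9 and 9.24 FPKM with EGF and 18.3, 26.8 and 23.7 FPKM in control. VCAN, the matrix proteoglycan versican, had 67.9, 54.1 and 56.8 FPKM with almonertinib, 73.4, 50.8 and 57.4 FPKM with EGF and 122, 88.9 and 92.6 FPKM in control. In each of these the control libraries were the highest, while the treated groups overlapped in ST14 and VCAN. MUC16 (0.72, adjusted p = 0.0149) was past the threshold but not without EGF replicate 3, and ST14 (0.38, adjusted p = 0.0456) was past it but not without almonertinib replicate 1 or 2 or without EGF replicate 1 or 3. LOXL4, a lysyl oxidase, averaged 2.99 ± 0.153 FPKM with almonertinib and 2.66 ± 0.147 FPKM with EGF and 5.54 ± 0.437 FPKM in control. SYT12, a synaptotagmin, averaged 6.32 ± 0.393 FPKM with almonertinib and 10.6 ± 0.677 FPKM with EGF and 16.4 ± 1.21 FPKM in control, and almonertinib was lower than EGF (-0.66, adjusted p = 3.88e-04).

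Below both stood, beside CDT1, SLC7A5, the carrier of large neutral amino acids LAT1, with 54.9, 60.1 and 52.2 FPKM with almonertinib, 41.04, 48.6 and 42.7 FPKM with EGF and 25.6, 31.6 and 29.8 FPKM in control. PLIN2, the coat protein of lipid droplets, had 33.3, 32.3 and 28.6 FPKM with almonertinib, 38.6, 41.9 and 39.4 FPKM with EGF and 19.1, 24.5 and 21.95 FPKM in control. ADM had 15.4, 14.8 and 17.6 FPKM with almonertinib, 20.3, 18.4 and 19.5 FPKM with EGF and 10.01, 9.93 and 12.1 FPKM in control. Each control library was the lowest here, and the treated groups did not overlap in these 3 genes, as at 64.3% of all tested loci. The differences between almonertinib and EGF were 0.33 for SLC7A5 (adjusted p = 0.0183), -0.34 for PLIN2 (adjusted p = 0.00991) and -0.27 for ADM (adjusted p = 0.0285). SLC7A5 and ADM were no longer past the threshold without almonertinib replicate 1 or 2 or without EGF replicate 1 or 3. PAEP, the lipocalin glycodelin, averaged 11.8 ± 1.39 FPKM with almonertinib and 14.1 ± 0.2101 FPKM with EGF and 7.05 ± 0.407 FPKM in control, and its difference between the treated groups was not past the threshold (adjusted p = 0.0516), though it was without almonertinib replicate 1. Without control replicate 2, the number of called loci with control above both was 220 in place of 126. The number of called loci with control below both was 37, and it was 79 without control replicate 2 and 73 without control replicate 3.

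**Figure D5:**
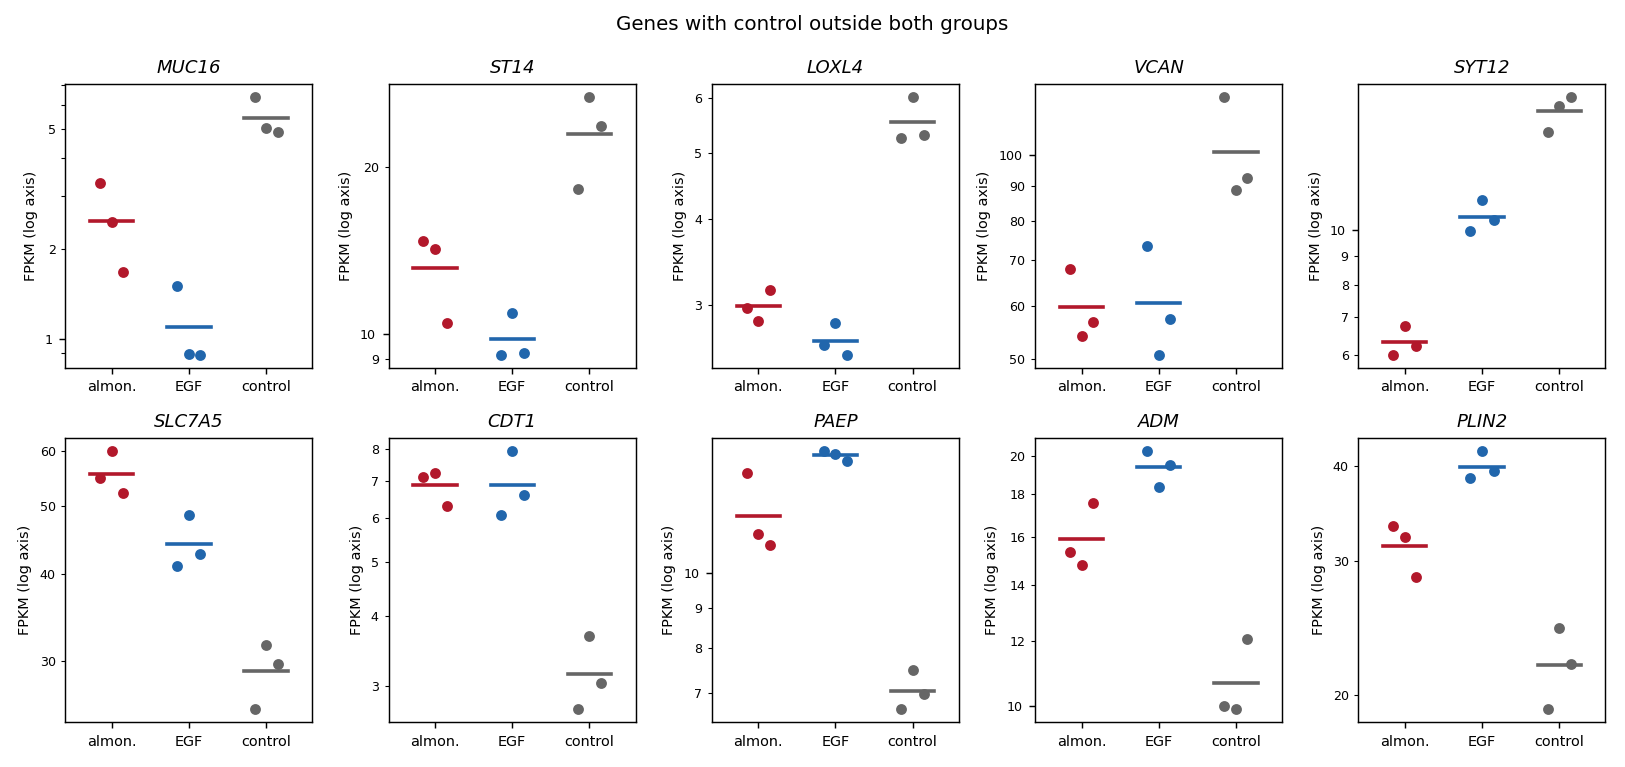
FPKM on a log axis in each library for the 5 genes with control furthest above and the 5 with control furthest below both groups; points are libraries, lines are means of 3, with almonertinib in red, EGF in blue and control in grey. The control points are the highest in MUC16, ST14, LOXL4, VCAN and SYT12 and the lowest in SLC7A5, CDT1, PAEP, ADM and PLIN2, and for SYT12 almonertinib lies below EGF.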

How the data were processed

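Messenger RNA of NCI-H1975 cells was sequenced in 15 libraries, 3 for each of 5 treatments. The 3 almonertinib and 3 EGF libraries were compared, and the 3 control libraries served to place the level of control cells. The authors deposited FPKM values for 61248 loci, 643 of them added by the authors to the Ensembl genes. Per the submitters' processing notes, the tools were HISAT2, featureCounts and DESeq2 and the genome build was hg19, with no version and no role stated; whether the counting used strand is not given in the sources used here. All 15 columns matched a library of the labels.

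Groups and replicate numbers came from the labels. Loci with at least 1 FPKM in 3 or more of the 6 libraries were tested on log2(FPKM + 1), which understates changes of low genes, with limma 3.58.1 in R 4.3.3 (moderated variance with intensity trend, robust, two-sided, 4 residual degrees of freedom), and p-values were adjusted by Benjamini-Hochberg over all 13520 loci. Calls had an adjusted p under 0.05. FPKM steps came out as whole reads for 99.998% of values above 0 (within 0.01), which gave the depths; limma-voom on these reads, an alternative, called 8076 loci. Control was called between, level with a group, or outside from the ranges of the 3 libraries. Level meant that the control range overlapped, at any point, the range of that group and not of the other. The place of control was (control mean minus EGF mean) over (almonertinib mean minus EGF mean) on log2(FPKM + 1).

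Named genes were EGFR and the 6 marker genes, the 12 largest differences each way among protein-coding genes that averaged 5 FPKM or more where they were higher and had no overlap, the 3 members of smallest p in each list, the 5 genes with control furthest outside on each side, and list examples chosen after their values were seen. A few genes of these lists are not reported here. The comparison, members and lists were chosen with earlier results of these data known. Correlations of deviations between libraries of the same replicate number were 0.008, 0.605 and 0.523, so the numbers were not taken as pairs. Promoter letters were searched in RefSeq promoters of GRCh38.p14, which 9389 of the 13520 loci matched by symbol. The fit was also run on simulated reads, with few changed loci and the same spread for all loci. As 58.4% of loci were called in the data, that run does not measure the error rate here. Python 3.11.15 was used for tables and figures. Alternatives were other pseudocounts, filters, scalings, fits and thresholds, the block, and leaving out each library.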

Additional observations from a re-analysis of the deposited data

How the results depend on the processing

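Of 2199 values of 123 named genes under 18 alternatives, 2158 kept their direction and their side of the threshold, 24 lost the call, 7 gained it and 10 changed sign, and no locus called in both an alternative and the reported fit had opposite directions. With a filter of 5 FPKM, 2095 loci were higher and 2524 lower. Leaving out each library gave 3124 to 4002 loci higher and 3155 to 4738 lower. The ERK, G1/S, G2/M, cholesterol, glycolysis, ribosome and FOXO counts kept their leading direction under both other scalings and limma-voom; counts led with that moved by over 1.5 times with a library left out stand beside the lists. Of the smaller sides, the higher HIF1 count of 2 was 1 without almonertinib 1 or 3 or EGF 2 or 3, the lower lysosomal count of 3 was 1 without almonertinib 2 or EGF 3 and 5 under TPM scaling, and the lower MHC class I count of 1 was 3 without almonertinib 3. The filter of 5 FPKM, which tests fewer genes, left 4 NRF2 genes, 1 p53 target and 2 other receptors on the lower side. The replicate block called 9361 loci, 4416 higher and 4945 lower, with 7877 of the 7893 calls shared; the pairing rests on a shared number only, and not every library correlated best with its own number (almonertinib 1 had 0.211 with EGF 2). Without almonertinib replicate 3 and EGF replicate 2, chosen after seeing the data, 4233 loci were higher and 5382 lower.

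Sign changes were among genes near 0: CD14 was -0.025 under TPM scaling, CDT1 -0.071 under TPM scaling and -0.065 to 0.16 with libraries left out, and VCAN 0.025 under median-ratio scaling and -0.13 to 0.13 with libraries left out; the cause was not tested. Called loci with control between numbered 6756 when group means replaced ranges, by construction, and those above both 732 and below both 405. Median-ratio scaling gave 78 above and 62 below, and TPM scaling 19 below. Without each control library, 698 to 1506 were level with EGF, 152 to 220 above and 51 to 79 below. Depth limits genes near 1 FPKM most, where few reads stand behind a value in a short gene.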

Other observations

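Long noncoding loci leaned the other way from protein-coding loci. Of 1028 tested long noncoding loci, 465 were higher with almonertinib and 146 lower, so that 76.1% of their calls were higher, against 44.4% for the 10945 protein-coding loci, of which 2914 were higher and 3649 lower. Loci kept through 1 group alone had to differ: 165 long noncoding loci were kept through almonertinib alone and 47 through EGF alone, and without them 302 of 816 were higher and 99 lower (75.3% of calls higher), against 43.2% for protein-coding loci counted the same way. The loci added by the authors resembled the long noncoding ones, with 168 higher and 55 lower of 383, and 224 of 871 pseudogenes were higher and 156 lower. The share of higher calls among long noncoding loci was 71.8% under TPM scaling and 77.2% under median-ratio scaling. These loci were low, with a median level of 1.74 FPKM against 6.21 FPKM for protein-coding loci, and the part of level in this split was not tested. The nuclear RNA NEAT1, which builds paraspeckles, had 25.1, 20.7 and 21.98 FPKM with almonertinib, 11.2, 9.74 and 9.44 FPKM with EGF and 25.3, 16.6 and 21.2 FPKM in control (log2 difference 1.08 ± 0.10). MALAT1, a further nuclear RNA, had 66.6, 55.1 and 85.99 FPKM with almonertinib, 61.3, 45.5 and 55.99 FPKM with EGF and 99.4, 48.5 and 69.95 FPKM in control, and did not pass the threshold (limma adjusted p = 0.142).

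Of the loci higher with almonertinib and averaging 5 FPKM or more there, the locus with the largest difference fell outside the naming rule because it is annotated as a pseudogene, and was singled out after its values were seen. IGFL1P1, a pseudogene of the IGF-like gene IGFL1, had 61.2, 60.8 and 55.7 FPKM with almonertinib, 2.15, 2.58 and 3.01 FPKM with EGF and 20.8, 28.5 and 28.1 FPKM in control, a log2 difference of 4.08 ± 0.10. Reads could be shared with its parent gene.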
